A study of Homo sapiens with 8 samples.

Results

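The effect of small interfering RNA (siRNA) delivery as such, whatever the RNA targets, was examined by pooling every transfected library of the series and setting the pool against untreated cells. All cells were H1650, an established human non-small cell lung cancer line, and the assay was ATAC-seq, which reads open chromatin through a transposase that inserts sequencing adapters into accessible DNA. The transfected pool held 6 libraries, 2 each of siControl (a non-targeting pool), siMena11a (a mix of siRNAs against exon 11a of hMENA) and siMena (a pool against ENAH, the gene that encodes hMENA). Each siRNA was given at 20 nmol/L with Lipofectamine RNAiMAX. Since siMena11a and siMena both target hMENA, means over the pool mix delivery with any silencing of hMENA. The untreated group held 2 libraries. Libraries were assigned to the 2 sides by label and cover all 8 of the series, but the comparison was chosen with earlier results of these data known. No label describes a control that received the lipid reagent without RNA, so the RNA and its carrier cannot be told apart. Nor do the labels say whether replicates came from separate cultures, and p-values then measure only the spread between these libraries.

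A transfected siRNA is loaded into an Argonaute protein, which it guides to matching mRNA, and the process takes place mostly in the cytoplasm. Double-stranded RNA and lipid carriers can also be noticed by cells without any match to a target, for example through RIG-I, a cytosolic RNA sensor whose activation leads to interferon production. A response of that kind would be shared by siControl, siMena11a and siMena, which is the question this pooling addresses. Open chromatin marks promoters, enhancers and insulators, and strong sites such as the promoters of broadly expressed genes tend to be found open in most conditions.

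The files were 1 list of peaks per library, on the hg19 genome build. Lists held from 1020 (siMena replicate 2) to 35472 peaks (siMena11a replicate 1), and the 3 shortest, replicate 2 of each transfected group, also had the 3 highest genome-wide backgrounds. That background, in tags per position, ran from 0.538 to 0.935 in the replicate 1 libraries and from 1.09 to 2.88 in the replicate 2 libraries. List length and replicate number therefore differ among libraries of the same treatment, and the main counts below are set beside those for the other ways to pick 2 libraries. Peaks that overlapped or touched were merged into 46665 regions, and a library listed a region if 1 of its peaks lay in it. Regions are given by hg19 position alone, since neither genes nor bases of that build were looked up here.

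Most of what the transfected libraries had in common was also found in untreated cells. Of the 46665 regions, 582 were listed in all 6 transfected libraries. Both untreated libraries listed 542 (93.1%) of these, 1 untreated library listed 36 (6.19%), and neither listed 4. The 4 regions particular to the pool made up 0.00857% of all regions. In the opposite direction, 442 regions (0.947% of all) were listed in both untreated libraries and in no transfected one. The plot of regions by number of libraries shows that the counts thin out toward both of these corners. Among regions absent from untreated cells, 6932 were listed in 1 transfected library, 1377 in 2, 188 in 3, 43 in 4, and 20 in 5.

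**Figure D1:**
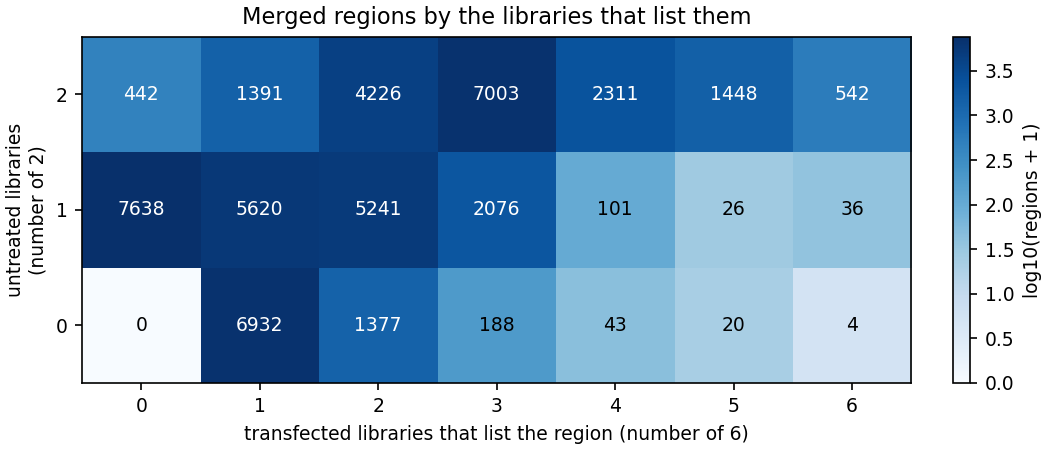
Number of merged regions by how many of the 6 transfected libraries (horizontal axis) and of the 2 untreated libraries (vertical axis) list them, shaded by log10(regions + 1). The lower right cell holds the 4 regions listed in every transfected and no untreated library, and the upper left cell the 442 with the opposite pattern.

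Neither count stood out from what other pairs of libraries gave. Any 2 of the 8 libraries can be chosen in 28 ways, and the same counts were made for each choice, so the smallest p is 0.0357. The 4 regions missing from the untreated pair ranked 7 of 28 (one-sided exact permutation p = 0.25), with counts from 0 to 1950 over all choices and a median of 0.5. The 442 regions found in the untreated pair alone ranked 5 of 28 (one-sided exact permutation p = 0.179), against a range from 0 to 3511 and a median of 9. The 4 pairs above it combined the 4 longest lists. Untreated replicate 1 with siMena11a replicate 1 gave 3511, siControl replicate 1 with siMena11a replicate 1 gave 1112, untreated replicate 1 with siControl replicate 1 gave 1020, and untreated replicate 2 with siMena11a replicate 1 gave 815. Choices of 1 replicate 1 and 1 replicate 2 library, 16 in all, keep the replicate number as a block. Among these the untreated pair ranked below 1 other choice on each count (one-sided exact permutation p = 0.125 for both, with 0.0625 the smallest possible).

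The 4 treatment groups, taken as pairs, gave different counts. The siControl pair was alone absent from 0 regions and alone present in 8, and for the siMena11a pair these were 0 and 1. The siMena pair, which holds the shortest list, was alone absent from 57 regions and alone present in 0. Untreated cells, with 4 and 442, had the highest number of regions listed in 1 group alone. How far list length accounts for this was not tested, and when all lists were cut to the strongest 1020 peaks the untreated pair alone listed 23 regions (one-sided exact permutation p = 0.321).

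**Figure D2:**
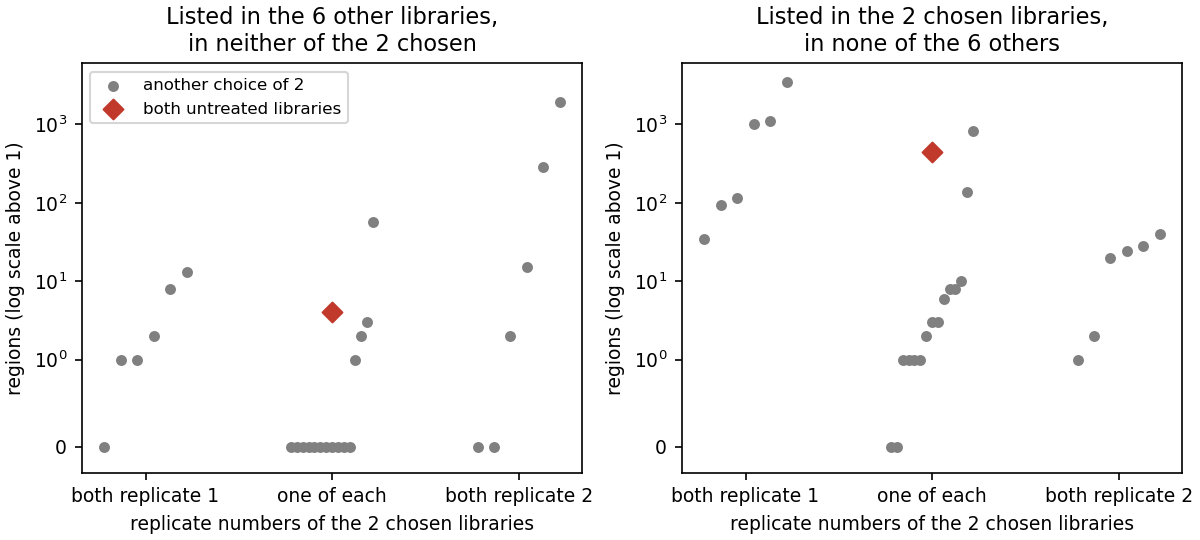
Regions listed in the 6 other libraries but in neither chosen one (left) and in the 2 chosen libraries but in no other (right), for each of the 28 choices of 2 libraries, on an axis that is logarithmic above 1. Diamonds mark the untreated pair at 4 and 442, and grey points the other choices, arranged by the replicate numbers they combine.

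The 4 regions listed after every transfection and never in untreated cells had folds between 2.56 and 5.98. They are called T1 to T4 here, in order of the lowest percentile of their −log10 q within the 6 lists. T1 lay at chr8:144940230-144940818. Its fold over local background, the authors' ratio of tags at the summit to the surrounding level, was 5.98 and 4.93 in the siControl, 5.30 and 5.39 in the siMena11a, and 5.58 and 5.35 in the siMena libraries (replicates 1 and 2). T1 ranked at percentiles 95.9, 97.8 and 96.3 in the replicate 2 lists of siControl, siMena11a and siMena, and at 71.3, 40.6 and 68.1 in replicate 1. The 6 folds of T1 lay close together, and T1 was the only one of the 4 still listed in all 6 libraries when peaks had to reach a −log10 q of 5.

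T2 lay at chr8:142502299-142502807, 212 bp from a region that all 8 libraries listed. Its folds were 4.97 and 4.39 in siControl, 3.78 and 4.14 in siMena11a, and 4.36 and 4.42 in siMena. T2 ranked high in the short replicate 2 lists, between percentiles 92.5 and 93.7, and at percentile 9.41 in the long list of siMena11a replicate 1, where its fold was also the lowest of the 6.

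T3, at chr1:236877019-236877873, had folds of 5.28 and 4.53 in siControl, 4.63 and 3.42 in siMena11a, and 5.24 and 3.83 in siMena. T4, at chr17:21902680-21903387, had the lowest folds, 3.15 and 2.56 in siControl, 2.80 and 2.58 in siMena11a, and 3.28 and 2.85 in siMena. T3 lay 13 bp from a region that siMena11a replicate 2 alone listed. T4 lay 733 bp from a region listed in untreated replicate 2, siControl replicate 2 and siMena replicate 1. When peaks had to cover 50% of a region, T3 was listed in 33.3% and T4 in 83.3% of transfected libraries, and T1 and T2 in 100%. The pattern at T3 and T4 thus depends on the rule for listing. Peaks with folds this low lay above a raised local background, since at the genome-wide background the lowest fold listed was 3.61 to 4.12 in the transfected libraries. For the 542 regions listed everywhere the median fold ran from 4.57 (siMena replicate 2) to 11.5 (untreated replicate 1).

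The number of such regions depended on single libraries. Dropping a library removes a condition, so the count can only grow. It was 9 without untreated replicate 1, 35 without untreated replicate 2, 8 without siControl replicate 1, 12 without siMena11a replicate 1 and 11 without siMena replicate 1, and it stayed at 4 without any other library. The regions T1 to T4 were all lost from at least 1 transfected list when lists were shortened to 1020 peaks, although 4 regions then had the same pattern.

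**Figure D3:**
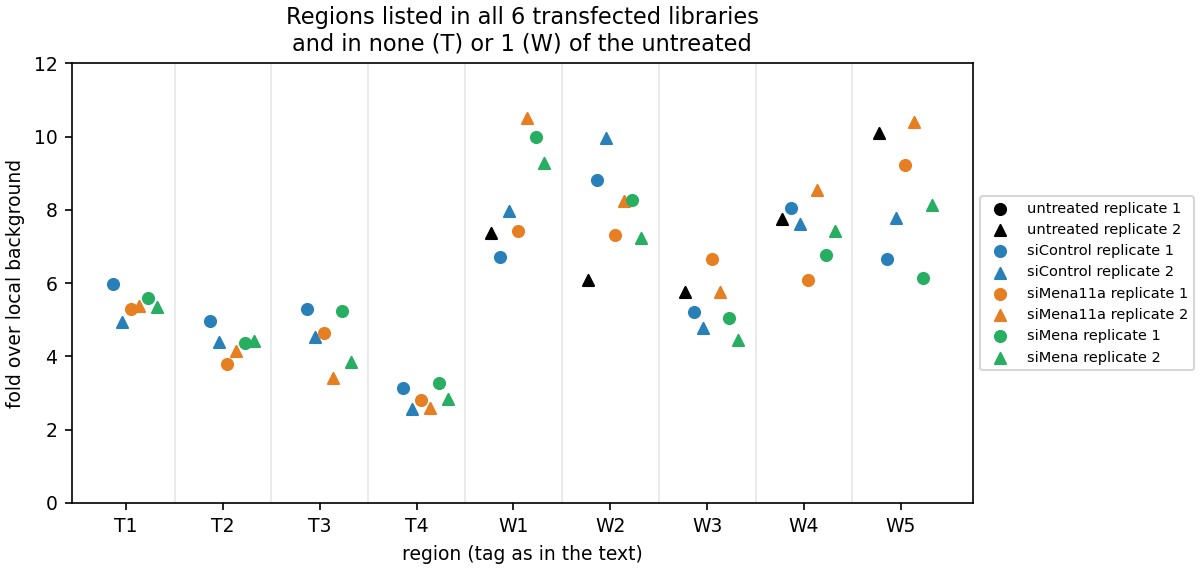
Fold over local background at regions listed in all 6 transfected libraries and in no untreated library (T1 to T4) or in 1 (W1 to W5), with 1 point per library that lists the region, coloured by group and shaped by replicate number. T1 to T4 lie between 2.56 and 5.98, and only untreated replicate 2 has a point among W1 to W5.

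A further 36 regions were listed after every transfection and in exactly 1 untreated library, and that library was nearly always the same one. Untreated replicate 2 listed 31 of them and untreated replicate 1 listed 5. The 5 with the highest lowest percentile over the transfected lists are called W1 to W5. W1, at chr10:130262566-130262963, was absent from untreated replicate 1 and had a fold of 7.37 in untreated replicate 2, against 6.72 and 7.98 in siControl, 7.43 and 10.5 in siMena11a, and 10.0 and 9.28 in siMena. W2, on the contig 4_gl000193_random from 68187 to 68491, had a fold of 6.08 in untreated replicate 2 and from 7.24 to 9.96 in the transfected libraries. At W2 all 6 transfected folds lay above that of the untreated library that listed it.

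At the other 4 of these regions, W1 included, the fold of untreated replicate 2 fell inside the transfected range. W3, at chr2:87655646-87656543, had 5.74 in untreated replicate 2 against 4.43 to 6.65. W4, at chr8:145180441-145181054, had 7.76 against 6.09 to 8.55, and W5, at chr10:129595661-129595982, had 10.1 against 6.13 to 10.4.

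Of the 40 regions listed after every transfection but not in both untreated libraries, 25 lay outside chromosomes 1 to 22 and X or near chromosome ends, and the other 15 in neither place. Of the 40, 10 (25%) lay outside chromosomes 1 to 22 and X, against 0.566% of all regions and 7.75% of those listed in all 8 libraries. Such regions are called contig regions below, by that rule alone. That share ranked 7 among the 28 choices of 2 libraries (one-sided exact permutation p = 0.25). Of the remaining 30, 15 (50%, 95% exact Clopper-Pearson interval 31.3% to 68.7%) lay within 5 Mb of the first or last listed position of their chromosome. The share was 10.1% over all regions on these chromosomes, 10.0% among the regions listed in all 8 libraries, and 5.57% among the 3768 others that 6 or 7 libraries listed. The interval covers counting error over regions only, and neighbouring regions are not independent.

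The share near ends moved with 1 library, and the contig share less so. Regions listed in every library but untreated replicate 1 numbered 31, while other long lists were the only one to miss far fewer (5 for untreated replicate 2, 1 for siControl replicate 1 and 0 for siMena11a replicate 1). Those 31 held all 10 contig regions, and 12 of their 21 regions on chromosomes 1 to 22 and X lay near chromosome ends. Among the 5 regions missing from untreated replicate 2 alone, none was a contig region and 1 lay near an end. In the 28 choices of 2 libraries, the share near ends was 50% for the untreated pair and reached 64.3% for untreated replicate 1 with siMena11a replicate 1 (one-sided exact permutation p = 0.143 for the untreated pair). It was at most 20% in every choice without untreated replicate 1, and 5.22% for untreated replicate 1 with siMena replicate 2, whose list lacks the most regions. The contig share was 40.8% (20 regions) for untreated replicate 1 with siMena replicate 1, and without untreated replicate 1 it still reached 50% (3 of 6 regions) for siMena11a replicate 1 with siMena replicate 1 and 28.6% (2 of 7) for siControl replicate 1 with siMena replicate 1. The 5 Mb distance and this comparison were chosen after the positions had been seen.

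**Figure D4:**
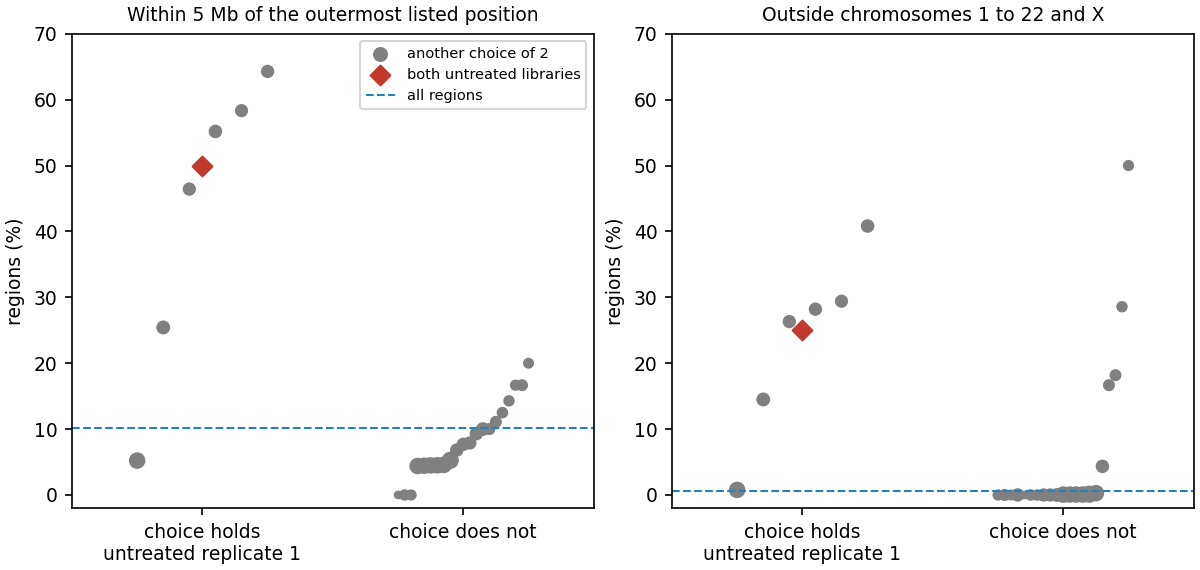
Share of regions within 5 Mb of the outermost listed positions (left) and outside chromosomes 1 to 22 and X (right), among regions listed in 6 libraries but not in both of the 2 chosen, for each of the 28 choices. Larger points stand for choices with more such regions (1 to 3385), the dashed line for all regions, and the diamond for the untreated pair at 50% and 25%.

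The 582 regions common to every transfection were wide and often had several summits. Their median width was 923 bp against 394 bp over all regions, and 70.6% contained a peak with more than 1 summit against 22.8%. Width grows with the number of lists merged into a region, so this comparison describes the merging as well as the chromatin. Chromosome 7 held 64 of the 582 (11.0%, against 6.20% of all regions), chromosome 5 held 54 (9.28% against 6.29%) and chromosome 8 held 46 (7.90% against 4.65%). Chromosome 19 held 4 (0.687% against 3.40%), the X chromosome 2, and 52 regions (8.93%) lay outside chromosomes 1 to 22 and X. The 3785 other regions that 6 or 7 libraries listed were closer to the 582 in most of these traits. Their median width was 794 bp, and 65.9% had several summits. They had 8.38% on chromosome 7, 7.90% on chromosome 5, 5.02% on chromosome 8 and 0.978% on chromosome 19. Only 0.449% lay outside chromosomes 1 to 22 and X. The share of these 582 regions that the untreated pair also listed, 93.1%, was near the median of 93.3% over the 28 choices of a pair, whose range ran from 13.8% to 99.8%.

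The 442 regions listed in both untreated libraries and after no transfection were narrow and of moderate height. Their median width was 337 bp, and 4.75% had a peak with several summits. The median fold was 5.61 in untreated replicate 1 and 5.64 in untreated replicate 2, where the regions listed in all 8 libraries had medians of 11.5 and 9.91. Of the 442, 369 (83.5%) had a fold in both untreated libraries above 4.12, the highest fold that any transfected library needed for listing at its genome-wide background, and none exceeded it by 2 times in both. Folds differ in scale between libraries. At the regions listed in all 8 the medians were 6.68, 5.61 and 4.57 in replicate 2 of siControl, siMena11a and siMena. The count of 369 therefore does not show that a transfected library would have listed these regions if equally open. Only 2 lay outside chromosomes 1 to 22 and X, and 7.95% of the rest lay within 5 Mb of the outermost positions.

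The strongest of these 442, by the lower of the 2 untreated percentiles, lay at chr7:12170348-12170709 (U1), with folds of 9.02 and 7.93 in untreated replicates 1 and 2. A region at chr3:111565621-111565965 (U2) had 7.19 and 7.05, and one at chr11:22532326-22532756 (U3) had 8.33 and 8.14. The next, at chr11:130506727-130507342 (U4), reached 7.32 and 8.20. At all 4 the regions ranked above percentile 57 in both untreated lists, and no transfected library had a peak there. U5 at chr9:5096471-5096687 had 4.51 and 4.33, U6 at chr3:16246992-16247377 had 8.02 and 6.45, U7 at chr10:88779753-88780067 had 7.14 and 5.58, and U8 at chr13:111847063-111847402 had 8.44 and 7.18.

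None of U1 to U8 was in an untreated list once lists were shortened to 1020 peaks. The count of 442 became 3193 without untreated replicate 1, 5378 without untreated replicate 2, 689 without siControl replicate 1 and 1571 without siMena11a replicate 1. It was 442 to 456 without any other library.

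Taken 1 siRNA at a time against the same 2 untreated libraries, the groups gave unequal counts. Both siControl libraries and neither untreated one listed 56 regions, and for siMena11a and siMena these were 32 and 31. Both untreated libraries and neither library of the group listed 1702 regions for siControl, 751 for siMena11a and 6338 for siMena. These counts share the untreated libraries, and the group with the longer replicate 1 list lost fewer regions.

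Within replicate number, regions missing after transfection outnumbered those new after it in both sets, as list lengths required in replicate 2. In replicate 1, all 3 transfected libraries listed 199 regions that untreated cells lacked, and 5389 regions of untreated cells were in none of the 3, with 12873 listed in all 4. In replicate 2 these counts were 129, 16734 and 640. The untreated list there held 21660 regions, against 5072, 2764 and 997 for siControl, siMena11a and siMena. With such lengths the missing regions had to outnumber the new ones, so the shared direction adds little. These counts were not made with another library in place of the untreated one. Single libraries did not all follow. In replicate 1, siMena11a listed 7931 regions that untreated cells lacked and missed 6910, while siControl listed 3234 and missed 10592, and siMena listed 592 and missed 20286. The long siMena11a list was thus the exception to fewer regions after transfection.

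Transfected libraries listed fewer regions on average, by less than their spread. The mean was 14036 ± 13882 (SD, n = 6) regions per transfected and 27732 ± 8587 (SD, n = 2) per untreated library. On the log2 scale the means were 12.88 and 14.72, and the difference, transfected minus untreated, was -1.85 (two-sided exact permutation p = 0.321, and p = 0.1875 over the choices that keep the replicate number as a block). The transfected libraries spanned 997 to 34825 regions, a range that includes both untreated libraries, with 33804 and 21660.

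At the 542 regions listed in all 8 libraries, peak strength was compared as a percentile of −log10 q within each list. The median difference, transfected minus untreated, was -12.7 percentile points (two-sided exact permutation p = 0.393), with medians of 82.3 and 97.2. Within replicate 1 the median difference was -0.40 points, and within replicate 2 it was -24.1. This percentile depends on list length, since the 542 regions fill much of a short list and cannot all rank high in it. Their median percentile was 48.9 in siMena replicate 2, which listed 997 regions. It was 98.0 and 96.9 in untreated replicates 1 and 2, which listed 33804 and 21660. How far list length accounts for the differences was not tested. When regions were instead ranked among the 542 alone, which gives every library the same scale, the median difference was -3.51 points (two-sided exact permutation p = 0.25), with -0.40 in replicate 1 and -6.18 in replicate 2. Every library then has the same mean rank, so this median describes how differences are skewed over regions, not a shift in strength. The quartiles were -13.3 and 9.93, and 42.8% of regions ranked higher after transfection. With the replicate number as a block the exact permutation p of this median difference was 0.0625, the smallest that 16 choices can give. This combination of scale and block was added after the data had been seen. On the within-list scale, where the block was planned, the two-sided exact permutation p was 0.3125.

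Regions whose percentiles did not overlap between the 6 transfected and the 2 untreated libraries were few. The percentile was higher in all 6 transfected libraries at 10 regions (1.85% of the 542) and lower at 46 (8.49%), with a one-sided exact permutation p = 0.179 for each count. On the scale of the 542 alone these were 14 (2.58%, one-sided exact permutation p = 0.5) and 34 (6.27%, one-sided exact permutation p = 0.143). Both scales called 6 regions higher, 60% of the first list and 42.9% of the second, and 28 lower, 60.9% and 82.4%. With the replicate number as a block, the untreated pair gave the most lower regions of the 16 choices on either scale (one-sided exact permutation p = 0.0625, the smallest possible). The block was planned for the within-list scale, and its use on the scale of the 542 was added after the data had been seen.

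No single region passed an exact permutation test after adjustment, on either scale. Over the 542 regions ranked among themselves, an exact permutation test of the mean rank difference gave an unadjusted p under 0.05 at 16 regions (2.95%), 3 higher and 13 lower after transfection. The lowest value after Benjamini-Hochberg adjustment was 0.829, and on the within-list scale, with 8 such regions (1.48%), 8 higher and 0 lower, it was 0.656. Only the most extreme of the 28 choices gives a p under 0.05. The untreated pair would be that choice at a fraction 0.0357 of regions if every choice were equally likely to be. Both shares lay below that fraction, so the directions, which differed between the scales, are not read as a result. The smallest p that 28 choices give is 0.0357, so an adjusted value under 0.05 would have needed most of the 542 regions to reach it at once, and the absence of such values says little. Of the 14 higher regions 2 lay outside chromosomes 1 to 22 and X, as did 1 of the 34 lower ones and 42 of all 542 (7.75%).

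Leaving out 1 library moved these counts too. On the within-list scale, the higher regions numbered 30 without untreated replicate 1, 41 without untreated replicate 2, 17 without siControl replicate 1 and 21 without siMena11a replicate 1. The lower regions numbered 83, 159, 86 and 87 in the same order, and 169 without siMena replicate 2, whose short list limits how many regions are common to all.

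The 5 regions with the widest gap in each direction, on the scale of the 542, are called H1 to H5 (higher after transfection) and L1 to L5 (lower), and are described without a test because the gap chose them. H1, at chr7:14030013-14031356, ranked at percentiles 36 and 32.2 in the untreated libraries, and at 58.7 and 70.7 in siControl, 80.6 and 77.1 in siMena11a, and 70.1 and 72.5 in siMena. All 6 transfected ranks of H1 lay at least 20 points above both untreated ranks. H2, at chr8:82754082-82755166, ranked at 11.8 and 8.86 in untreated cells, at 26.2, 18.5 and 50.4 in replicate 1 of siControl, siMena11a and siMena, and at 98.3, 98.7 and 98.5 in replicate 2.

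The replicate 2 libraries of the transfected groups set H2 apart, with folds of 13.7, 14.2 and 13.5 against 9.82, 8.75 and 9.55 in replicate 1 and 7.84 and 6.97 in untreated cells. H5, at chr2:87623665-87624160, showed the same split, with ranks of 10.1 and 12.5 in untreated cells, 34.9, 16.4 and 19.2 in replicate 1 and 97.0, 98.5 and 96.5 in replicate 2 of the transfected groups. At these regions the replicate 2 ranks were far above those of replicate 1 with the same siRNA. H3, at chr3:81810057-81811026, had untreated ranks of 23.1 and 22.2 and transfected ranks from 27.6 to 60.5, and H4, at chr5:33440455-33441541, had 37.5 and 36.2 against 41.7 to 70.1. By percentile within each whole list the mean differences at H1, H3 and H4 had the opposite sign, at -2.08, -8.60 and -8.82 points. The lowest transfected percentiles there, 71.9, 31.0 and 52.4, were all in the short siMena replicate 2 list. In replicate 1 every transfected percentile of H1, H3 and H4 lay above both untreated ones. The other transfected replicate 2 percentiles lay above, between or below the untreated ones.

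Among the lower regions, L1 at chr7:35840070-35841631 ranked at 71.0 and 83.6 in untreated cells, against 50.6 and 21.6 in siControl, 40.0 and 54.6 in siMena11a, and 52.4 and 20.7 in siMena. L2 at chr1:81640407-81641128 ranked at 79.7 and 88.6, against 24.2 and 47.4 in siControl, 68.3 and 33.8 in siMena11a, and 27.3 and 12.8 in siMena. The transfected ranks of L1 and L2 were spread widely below the untreated ones, with no order by replicate number, and with the median of a region's peaks in place of the strongest L1 was 11.7 points higher after transfection. L3 at chr2:198364357-198365390 had untreated ranks of 52.4 and 60.7 and the narrowest transfected range of the lower 5, from 27.9 to 41.5. L4 at chr1:174968379-174969569 had 43.7 and 50.6 against 12.7 to 33.8, and L5 at chr3:28282747-28283523 had 78.0 and 78.8 against 19.6 to 68.5.

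**Figure D5:**
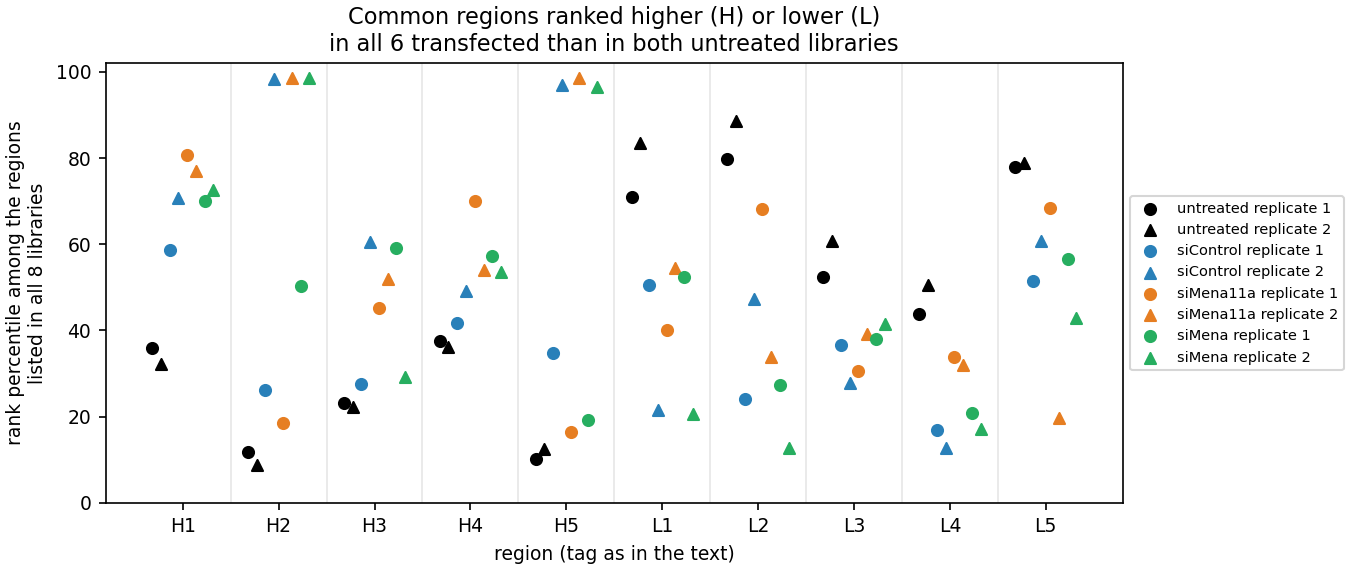
Rank percentile of −log10 q among the 542 regions listed in all 8 libraries, at the 5 regions with the widest gap in each direction (H1 to H5 higher, L1 to L5 lower after transfection), 1 point per library. Black points, the untreated libraries, lie below all coloured points at H1 to H5 and above them at L1 to L5, and triangles (replicate 2) of the transfected groups stand far above the circles at H2 and H5.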

How the data were processed

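ATAC-seq peak lists of 8 libraries were used, 1 per library. The submitters' processing notes name MACS2 2.2.5, Bowtie2 2.3.4.2, FastQC 0.11.5 and SAMtools 1.7, with hg19. Trimming, duplicate removal and the transposase offset are not given in the sources used here. Each row gives, as deposited by the authors, a score (10 times the −log10 q, rounded down in nearly all rows), a fold ratio over local background, a −log10 p and −log10 q, and the summit. These values hold within a library, and lists end at a q of 0.01. The labels' molecule field reads total RNA, although the files are ATAC-seq peaks.

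Rows with the same interval were joined into 1 peak, which took its strongest summit. Peaks of all lists that overlapped or touched (at least 1 bp counted as listed) were merged. A region's percentile was that of its strongest peak. Pileup and background in tags were recovered from fold and −log10 p (100% of rows within 0.001). Counts and differences for the untreated pair were compared with all 28 choices of 2 libraries by exact permutation, where p is the share of choices with at least as large a value (absolute value if two-sided). Read totals are not in the lists, so precision rests on 2 and 6 libraries. The replicate number was a block in an alternative. The labels do not say what it marks. Over the 542 common regions, same-numbered libraries deviated from their group means together (correlations 0.10 to 0.74 over the 6 pairs of groups). Only the block setting treats them as paired, and the p-values over all 28 choices do not. The correlations were 0.64 to 0.74 between transfected groups. Between untreated and siControl, siMena11a and siMena they were only 0.25, 0.22 and 0.10, so pairing across the contrast tested was weak. Named regions were chosen by rule: all regions in the 6 transfected lists alone, then the 8, 5 and 5 strongest or most separated of the other kinds. The members and rules were chosen with earlier results of these data known. Gene lists and motifs were not used, since the reference tables are of another build. Code was tested on simulated data. The tools were matplotlib 3.10.9, SciPy 1.17.1, numpy 2.4.6 and pandas 2.3.3 under Python 3.11.15.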

Additional observations from a re-analysis of the deposited data

How the results depend on the processing

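Regions listed in all 6 transfected libraries alone numbered 7 with a −log10 q of at least 5, 12 in bins of 500 bp, and 4 to 35 when 1 library was left out. Regions in both untreated libraries alone numbered 23 with lists shortened to 1020 peaks, 858 in bins of 500 bp, and 442 to 5378 with 1 library left out. Common regions with a higher percentile in all 6 transfected libraries numbered 6 with shortened lists, 5 with the stricter q, 6 on chromosomes 1 to 22 and X, 4 with peaks covering 50% of a region, and 10 to 41 with 1 library left out. Those with a lower percentile numbered 15, 25 and 5 with shortened lists, the stricter q and the 50% rule, and 47 to 169 with 1 library left out. Fewer regions were common to all lists under these 3 settings (178, 323 and 108, against 542). The differences in log2 region number and in median percentile stayed negative under every alternative run, among them peaks merged across 100 bp, folds in place of −log10 q, and a region's median peak. They shrank to -0.0078 with shortened lists, where the shortening itself evens out list length, and to -1.88 points with the 50% rule. Their p stayed above 0.05, which could not have been otherwise with an untreated library left out (7 choices) or with the block (16). For ranks among the 542 alone, a negative median reflects skew only, since each library has the same mean rank. With the replicate number as a block (the paired setting), the values are the same by construction, exact permutation p was 0.125 for the higher count and 0.3125 for the median percentile difference, and 0.0625, the smallest possible, for the lower count. A block of 16 choices cannot reach 0.05, so it says nothing on whether a call would hold. H1, H3 and H4 were lower, not higher, after transfection by mean within-list percentile (-2.08, -8.60 and -8.82 points), with the lowest value in siMena replicate 2 each time. In replicate 1 their transfected percentiles all lay above both untreated ones. L1 was higher by 11.7 points with the median of its peaks. The cause of these changes was not tested. The shortest list, siMena replicate 2, limits how many regions all 8 libraries share (1938 without it), and absence from a list does not show closed chromatin.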

Other observations

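Folds at the regions shared by all libraries were nearly always lower in replicate 2 than in replicate 1 of the transfected groups. The median fold over the 3 replicate 2 libraries exceeded that over the 3 replicate 1 libraries at 27 of 542 regions (4.98%). It did so at 13 of the 42 common regions outside chromosomes 1 to 22 and X (31.0%), at 7 of the 50 within 5 Mb of the outermost listed positions (14.0%), and at 20 of the 40 regions listed after every transfection but not in both untreated libraries (50%). These 40 regions had median folds of 4.97, 4.65 and 5.02 in replicate 1 of siControl, siMena11a and siMena, and of 4.82, 5.23 and 4.47 in replicate 2. Replicate 1 medians at the 542 were 10.5, 10.5 and 8.99. Both sets required a listing in these replicate 2 libraries, whose lowest listed folds at genome-wide background were 3.61 to 3.67. At the 40 regions, nearer that limit, the rule tends to leave out much lower replicate 2 folds. How far this accounts for the 50% was not tested.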
